A study of Mus musculus with 6 samples.

Results

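The globins examined here are the protein chains of hemoglobin: Hba-x and the pair Hbb-bh1 and Hbb-y, which are embryonic chains, and Hba-a1, a definitive (adult) chain. They were read from every probe set on the array that the platform annotation gives to 1 of these symbols and to no other, which came to 8 probe sets for 4 genes, out of 45101 probe sets and 18194 genes with a probe set of their own. RNA levels came from Affymetrix mouse arrays, each hybridized with the RNA of 1 whole embryo at embryonic day 9.5 (E9.5). The RFC1-/- group held 3 embryos, homozygous for an inactivated gene of the reduced folate carrier (RFC1), a membrane protein through which cells take up folate, and described in the labels as having an open neural tube over brain and spine (craniorachischisis) and an allantois that had not fused with the chorion. The RFC1+/+ group held their 3 wildtype littermates, labelled as normal, so that each of 3 litters gave 1 embryo of each genotype. All embryos were on an inbred SWV background from heterozygous dams, and all dams were injected with 25 mg/kg folic acid daily, so no embryo of either genotype developed without supplementation. Extraembryonic membranes were taken for genotyping, and the RNA came from the rest of the embryo.

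Hemoglobin carries oxygen in red blood cells and is built from alpha-like and beta-like chains, each encoded in its own gene cluster. The first red cells of the mouse, the primitive erythroid cells, form in the blood islands of the yolk sac, enter the circulation and mature there, and they are filled with embryonic globin RNA. Hba-x encodes the zeta chain of the alpha-like family, and Hbb-bh1 and Hbb-y encode the beta-like chains called beta-h1 and epsilon-y. As primitive cells mature, zeta gives way to the adult alpha chains of Hba-a1 and Hba-a2, and beta-h1 gives way to epsilon-y, while the adult beta chains (Hbb-bs, Hbb-bt and, in other strains, Hbb-b1 and Hbb-b2) belong mostly to the later definitive red cells of the fetal liver and bone marrow.

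The sequences just before the transcription start of the globin genes are shown because erythroid regulators measured on the same arrays are known to bind letters found there. The GATA factors read GATAA and the Krüppel-like factors read CACCC. RefSeq promoter entries (build GRCm38.p6) were found for 3 of the 4 genes, and Hbb-bh1 did not match. Each line below gives the 250 bases before the gene's start, in the direction of the gene, with GATAA and CACCC matches on either strand in capitals. Hba-x lies at chr11:32276350-32276599 on the + strand, Hba-a1 at chr11:32283422-32283671 on the + strand, and Hbb-y at chr7:103853208-103853457 on the - strand.
Hba-x: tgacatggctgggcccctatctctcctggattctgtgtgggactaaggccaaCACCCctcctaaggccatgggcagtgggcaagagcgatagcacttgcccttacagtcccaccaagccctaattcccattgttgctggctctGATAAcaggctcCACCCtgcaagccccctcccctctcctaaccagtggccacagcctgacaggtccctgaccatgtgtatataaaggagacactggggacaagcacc
Hba-a1: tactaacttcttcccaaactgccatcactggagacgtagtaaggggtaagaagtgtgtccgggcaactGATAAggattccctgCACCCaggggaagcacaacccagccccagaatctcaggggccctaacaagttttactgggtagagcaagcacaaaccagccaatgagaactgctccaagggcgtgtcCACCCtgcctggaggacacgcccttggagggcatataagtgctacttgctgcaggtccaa
Hbb-y: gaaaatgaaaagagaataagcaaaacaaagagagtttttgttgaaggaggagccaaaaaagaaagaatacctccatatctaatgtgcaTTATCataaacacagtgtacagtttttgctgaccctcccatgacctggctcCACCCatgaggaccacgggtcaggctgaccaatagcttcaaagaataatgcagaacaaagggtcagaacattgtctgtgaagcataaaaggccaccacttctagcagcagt
In Hba-x the GATAA match began 107 bases before the start, with CACCC at 198 and 95 bases. In Hba-a1 GATAA began 182 bases before the start, with CACCC at 167 and 60 bases. In Hbb-y the GATAA match lay on the opposite strand (TTATC as printed), 162 bases before the start, and CACCC lay at 111 bases. A further motif, CCAAT, was found in lower case at 88 bases in Hba-a1 and at 83 bases in Hbb-y, and was not found on either strand of the Hba-x window. None of these matches overlapped another. The letters are common: of 32851 promoters of the same length, 22.6% held GATAA, 52.0% held CACCC and 33.8% held CCAAT on either strand, so a match is a description and not a binding site. The windows of Hba-a1 and its duplicate Hba-a2 shared an unbroken run of 247 of 250 bases.

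Values are log2 expression levels from RMA, a method that corrects for background, brings the arrays to 1 scale and combines the probes of a set. A level also depends on how brightly a set's probes bind, so the level of 1 probe set was compared between embryos, and a rank among all probe sets of an array says only how bright a set is. The 6 arrays had medians between 5.43 and 5.49 on the log2 scale and correlated with each other between 0.984 and 0.996. The targeted gene, Slc19a1, has 3 probe sets, of which 2 measured higher in RFC1-/- embryos by 0.93 and 1.19 and 1 differed by 0.02. The deleted part of the gene was not given in the sources used here, so these probe sets do not check the genotypes, which are those of the labels. Across all 45101 probe sets, limma with the litter as a block placed 1241, or 2.75%, below an adjusted p of 0.05, with 398 lower and 843 higher in RFC1-/- embryos. The RFC1-/- embryo of litter 3 stood apart from the other RFC1-/- embryos in adult globins, and results that rest on it are given with and without its litter.

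All 3 embryonic globin genes were far lower in RFC1-/- embryos than in their RFC1+/+ littermates, by 12.97-fold to 53.1-fold depending on the probe set. The own probe set of the definitive gene Hba-a1 did not pass the test, but it was dim in all embryos and could hardly go lower. Brighter sets shared by Hba-a1 and Hba-a2, read after the values had been seen, differed by -3.35 to -2.94. They did not pass either (adjusted p between 0.0595 and 0.0702, limma). Of the 8 globin probe sets, 7 were lower at an adjusted p under 0.05 (limma, Benjamini-Hochberg over all probe sets) and 0 were higher, against 0.882% of all probe sets called lower and 1.87% called higher. The 7 were all the probe sets of the embryonic genes. Their median log2 difference was -4.67, that of the 8 globin probe sets was -4.65, and that of all probe sets was -0.02. The study had itself selected Hba-x, Hbb-bh1 and Hbb-y on these samples, so their direction is not independent evidence. Because RNA came from whole embryos, fewer erythroid cells and less globin RNA per cell cannot be told apart. The study describes RFC1-/- embryos as developmentally delayed, with very few nucleated red cells in vessels and blood islands. A difference in developmental stage cannot be told apart from genotype on these arrays either.

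Hba-x, the zeta chain that pairs with embryonic beta-like chains in the first hemoglobins, has 1 probe set (1448716_at). Its log2 levels were 5.83, 8.04 and 6.19 in the RFC1-/- embryos of litters 1, 2 and 3, against 12.31, 11.83 and 11.25 in their RFC1+/+ littermates. The groups did not overlap, and the highest RFC1-/- embryo, that of litter 2, still lay more than 3 log2 units below the lowest RFC1+/+ embryo. The mean was 6.69 ± 1.18 in RFC1-/- and 11.80 ± 0.53 in RFC1+/+ embryos (SD, n = 3 each). The log2 difference was -5.11 (SE 0.42, adjusted p = 0.00536, limma), which is 34.6-fold lower, and within litters 1, 2 and 3 the level was 89.2-fold, 13.8-fold and 33.5-fold lower.

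Hbb-bh1, the beta-like chain of the earliest primitive cells, has 3 probe sets. Names ending in _a_at mark probes that take in several transcripts of 1 gene, and names ending in _x_at mark sets with some probes that may also match other sequences, so the second can mix in signal of related globins. On 1437810_a_at Hbb-bh1 measured 8.36, 10.35 and 9.06 in the RFC1-/- embryos of litters 1, 2 and 3, against 14.24, 13.94 and 13.59 in RFC1+/+ embryos, a difference of -4.67 (SE 0.37, adjusted p = 0.00514, limma) or 25.4-fold. On 1437990_x_at it measured 8.02, 10.04 and 8.61 in RFC1-/- embryos, against 13.81, 13.54 and 13.24 in RFC1+/+ embryos, a difference of -4.63 (SE 0.36, adjusted p = 0.00514) or 24.8-fold. These values ran side by side: litter 2 held the highest RFC1-/- embryo on both, and neither showed overlap of the groups. On 1450736_a_at the levels were 6.29, 8.62 and 6.96 in RFC1-/- embryos, against 13.24, 12.73 and 12.31 in RFC1+/+ embryos, and the difference was larger, -5.47 (SE 0.45, adjusted p = 0.00530) or 44.4-fold. On that probe set Hbb-bh1 was 123-fold lower in the RFC1-/- embryo of litter 1, 17.4-fold lower in litter 2 and 40.8-fold lower in litter 3.

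Hbb-y, the epsilon-y chain that follows beta-h1 as primitive cells mature, also has 3 probe sets and spanned the widest range. On 1450621_a_at it measured 5.31, 7.72 and 6.76 in the RFC1-/- embryos of litters 1, 2 and 3, against 13.001, 12.42 and 11.56 in RFC1+/+ embryos. The difference was -5.73 (SE 0.53, adjusted p = 0.00682, limma), or 53.1-fold, and by litter the level was 207-fold, 26.0-fold and 27.9-fold lower. This was the largest mean difference of the 8 globin probe sets, and the RFC1-/- embryo of litter 1 was the lowest of all on it. On 1436717_x_at Hbb-y measured 8.34, 11.41 and 10.62 in RFC1-/- embryos, against 13.92, 13.89 and 13.65 in RFC1+/+ embryos, a difference of -3.70 (SE 0.52, adjusted p = 0.0176) or 12.97-fold. On 1436823_x_at it measured 8.18, 11.44 and 10.63 in RFC1-/- embryos, against 13.98, 13.85 and 13.64 in RFC1+/+ embryos, a difference of -3.74 (SE 0.56, adjusted p = 0.0223) or 13.4-fold. The pair of _x_at sets thus gave smaller differences than the _a_at set, with RFC1+/+ embryos close together and RFC1-/- embryos of litters 2 and 3 well above that of litter 1, and the groups did not overlap on any of the 3.

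**Figure D1:**
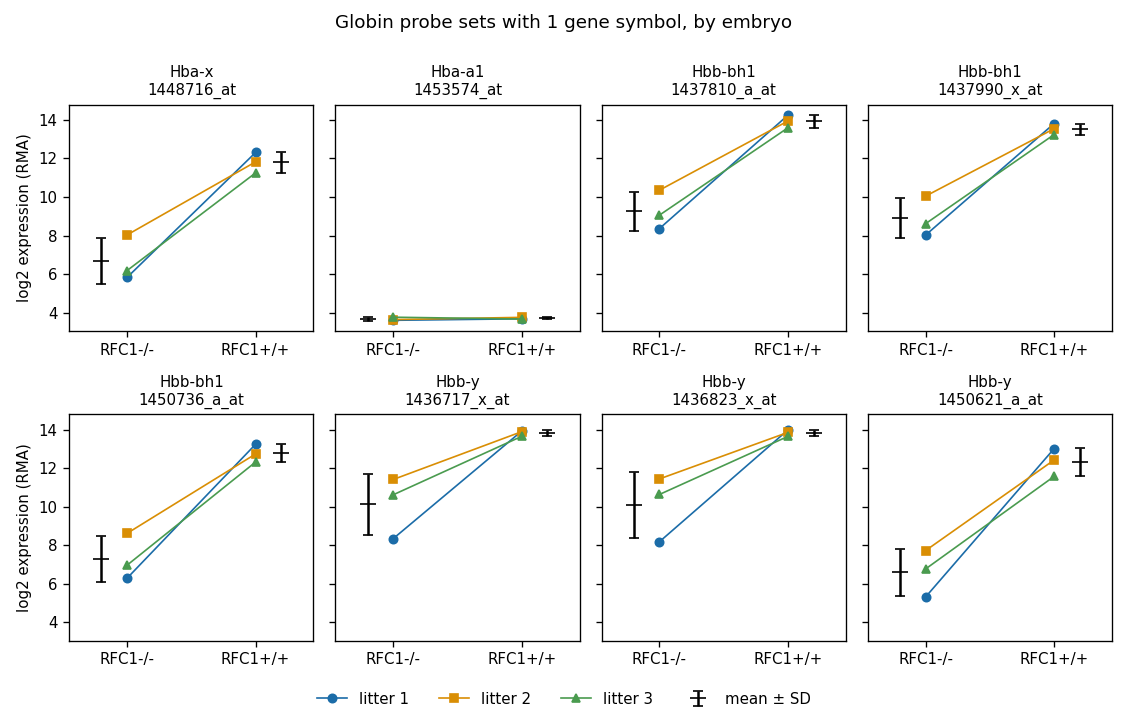
Log2 expression (RMA) of the 8 globin probe sets with 1 gene symbol, 1 panel each, with RFC1-/- embryos on the left and RFC1+/+ embryos on the right, a line joining the embryos of 1 litter, and bars for the mean ± SD of 3 embryos. The 7 panels of Hba-x, Hbb-bh1 and Hbb-y show RFC1-/- embryos between 5.31 and 11.44 and RFC1+/+ embryos between 11.25 and 14.24 with no overlap within a panel, while all 6 embryos lie between 3.60 and 3.77 for Hba-a1.

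The order of embryos was the same for all 7 embryonic probe sets. These sets read only 3 genes on the same arrays, so they are not 7 separate observations. In RFC1-/- embryos the highest level was that of litter 2 and the lowest that of litter 1, and in RFC1+/+ embryos the highest level was that of litter 1 and the lowest that of litter 3. The difference within a litter was therefore largest in litter 1 and smallest in litter 2 for all 7, and it ran between -7.69 and -2.42. The spread between embryos was wider in RFC1-/- embryos, with SDs of 1.01 to 1.70, than in RFC1+/+ embryos, with SDs of 0.15 to 0.72 (n = 3 each); this difference in spread was not tested. All RFC1-/- embryos lay below all RFC1+/+ embryos on all 7, against 11.5% of all probe sets, and 13 of 45101 probe sets, or 0.0288%, were lower by 2 or more in every litter, the embryonic globin sets among them. Without litter 1 the 7 differences ran between -4.75 and -2.71 (highest adjusted p = 0.00550, limma), without litter 2 between -6.25 and -4.31 (0.0172) and without litter 3 between -6.20 and -4.03 (0.0121).

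Hba-a1 has 1 probe set of its own (1453574_at), and it was dim on every array. It measured 3.60, 3.64 and 3.77 in the RFC1-/- embryos of litters 1, 2 and 3, against 3.68, 3.76 and 3.67 in RFC1+/+ embryos. The groups overlapped, and the difference of -0.03 (SE 0.10, adjusted p = 0.944, limma) was lower in litters 1 and 2 and higher in litter 3. On each array between 11.6% and 15.2% of all probe sets were at or below this level, against 47.8% to 96.8% for the embryonic globins in RFC1-/- embryos and 96.2% to 99.97% in RFC1+/+ embryos. Without litter 2 the Hba-a1 difference turned to 0.0089. The deposited table holds no detection call, so whether this probe set was above background was not tested.

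The adult chains were also read from 4 probe sets that the annotation gives to several adult globin genes at once, a choice made after the values had been seen. Of these, 3 are shared by Hba-a1 and Hba-a2 and 1 by the adult beta genes Hbb-bt, Hbb-bs, Hbb-b2 and Hbb-b1, and names ending in _s_at mark probes shared by several transcripts. On 1417714_x_at the adult alpha signal was 6.82, 8.02 and 10.61 in the RFC1-/- embryos of litters 1, 2 and 3, against 12.34, 11.50 and 11.66 in RFC1+/+ embryos. On 1428361_x_at it was 7.90, 8.40 and 11.23 in RFC1-/- embryos, against 12.60, 11.87 and 11.87 in RFC1+/+ embryos. On 1452757_s_at it was 7.41, 8.39 and 11.19 in RFC1-/- embryos, against 12.43, 11.72 and 11.94 in RFC1+/+ embryos. All RFC1-/- embryos lay below all RFC1+/+ embryos on these 3 sets, but the RFC1-/- embryo of litter 3 came close to its littermate, where it had been far below it for the embryonic chains. The log2 differences were -3.35 (SE 0.70), -2.94 (SE 0.65) and -3.03 (SE 0.67), in the same order of probe sets. None of the 3 passed at an adjusted p under 0.05 (adjusted p = 0.0595, 0.0702 and 0.0702, limma); 3 of 3 had an unadjusted p under 0.05, the random-variance test of the study's methods, a paired test with a variance shared across genes, called 0, and limma with an intensity trend in the variance called 3 (adjusted p between 0.0239 and 0.0303).

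The adult beta signal (1417184_s_at) was 8.005, 8.07 and 11.37 in the RFC1-/- embryos of litters 1, 2 and 3, against 10.37, 10.12 and 9.86 in RFC1+/+ embryos. The RFC1-/- embryo of litter 3 was the highest of all 6 and the other RFC1-/- embryos were the lowest, so the groups overlapped. Within litters the difference was -2.37, -2.05 and 1.51, with a mean of -0.97 (SE 0.67, adjusted p = 0.602, limma); the probe set was not called by the random-variance test either and its unadjusted p was 0.190. Without litter 3 the adult alpha differences were -4.50, -4.08 and -4.17 (adjusted p = 0.00145, 0.000226 and 0.000806, limma) and the adult beta difference was -2.21 (adjusted p = 0.000186), against 1.04% of all probe sets called lower without that litter. Without litter 1 the adult alpha differences lay between -2.26 and -2.04 (adjusted p between 0.164 and 0.273) and the adult beta difference was -0.27 (adjusted p = 0.997), and without litter 2 they lay between -3.29 and -2.67 (0.153 to 0.196) and at -0.43 (0.917). All 4 adult globin sets thus passed only when litter 3 was the litter left out. That litter was singled out by its values on these same sets, so this is a description and not support for lower adult globins.

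**Figure D2:**
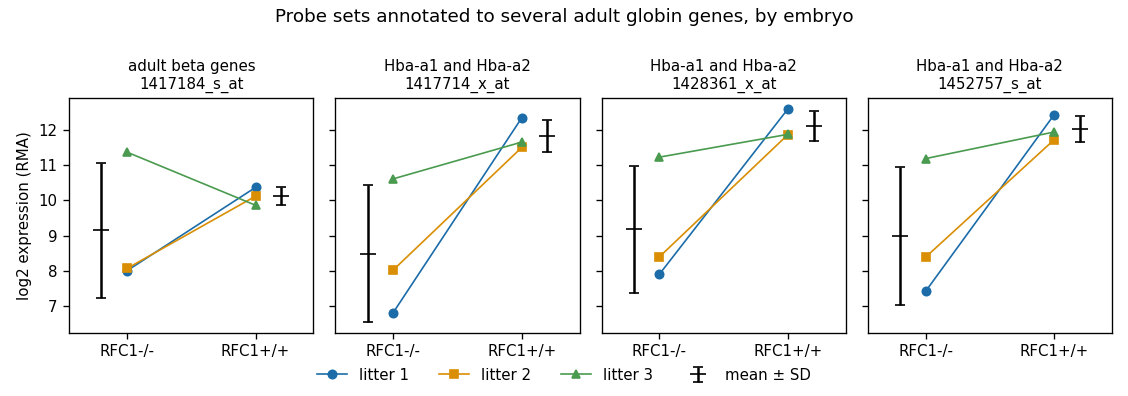
Log2 expression (RMA) of the 4 probe sets that several adult globin genes share, 1 panel each, with RFC1-/- embryos on the left and RFC1+/+ embryos on the right, a line joining the embryos of 1 litter, and bars for the mean ± SD of 3 embryos. The RFC1-/- embryo of litter 3 measured 11.37 on the adult beta set, above all RFC1+/+ embryos, and between 10.61 and 11.23 on the adult alpha sets, where the other RFC1-/- embryos lay between 6.82 and 8.40.

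Markers of circulating blood from the dam were read beside these values. S100a8, a granulocyte protein, measured 3.84, 3.52 and 6.00 in the RFC1-/- embryos of litters 1, 2 and 3, against 3.85, 3.82 and 3.74 in RFC1+/+ embryos, so that S100a8 was highest in the embryo with high adult globins. Of the 7 markers of adult granulocytes and platelets (S100a8, S100a9, Ngp, Camp, Ltf, Mpo and Itgb3), 0 passed (limma; 0 at an unadjusted p under 0.05 and 0 by the random-variance test), and their summed log2 levels were 30.4 to 33.8 in RFC1-/- embryos and 31.1 to 33.1 in RFC1+/+ embryos. The other markers of the list differed by less than 0.3 between that embryo and its littermate. In litter 3, S100a9, the partner of S100a8, was 3.62 in the RFC1-/- and 3.47 in the RFC1+/+ embryo, Ngp was 5.32 and 5.05, and Camp was 5.03 and 5.01. Ltf was 4.396 in the RFC1-/- and 4.391 in the RFC1+/+ embryo of that litter, Mpo was 4.16 and 4.21, and Itgb3 was 5.27 and 5.195. The part of the dam's blood in the adult globin values was not tested.

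Embryonic and definitive chains were set against each other as the difference between 2 genes of their RFC1-/- minus RFC1+/+ values within a litter, each gene on its brightest probe set. The probe set of Hba-a1 alone was dim in all 6 embryos and could hardly go lower, so a gap between it and the embryonic chains would only restate their own difference, and the comparison was made with the shared adult sets. Tests were exact sign-flip permutations over litters, two-sided, which with 3 litters cannot give a p below 0.25. Set against the adult alpha probe sets, chosen after the values had been seen, the embryonic chains differed by -0.90, 0.14 and -3.39 in litters 1, 2 and 3 (mean -1.39, SD 1.82, exact permutation p = 0.5, adjusted over 6 comparisons 0.5). On these brightest sets, embryonic and adult alpha chains thus differed by less than 1 log2 unit in litters 1 and 2. In litter 3 they differed by more than 3, and without litter 3 their mean difference was -0.38. Comparisons with adult sets were not repeated on the dimmest sets of Hbb-bh1 (-6.95, -4.12 and -5.35 by litter) and Hbb-y (-7.69, -4.70 and -4.80). Those sets differed more between genotypes in every litter than the brightest ones, so the sizes given here hold for the brightest sets only. Set against the adult beta probe set, the embryonic chains differed by -3.61, -1.23 and -5.72 (mean -3.52, SD 2.24, exact permutation p = 0.25, adjusted 0.3), lower in 3 of 3 litters, with a mean of -2.42 without litter 3. The adult alpha sets in turn differed from the adult beta set by -2.71, -1.38 and -2.32 (mean -2.14, SD 0.69, exact permutation p = 0.25, adjusted 0.3).

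Among the embryonic chains on their brightest probe sets, the Hbb-y difference minus the Hbb-bh1 difference was 0.30, 1.11 and 1.499 in litters 1, 2 and 3 (mean 0.97, SD 0.61), and Hba-x differed from Hbb-bh1 by a mean of -0.44 (SD 0.21) and from Hbb-y by a mean of -1.41 (SD 0.57). The exact permutation p was 0.25 for each, before and after adjustment over the 7 comparisons of single-symbol genes. All of these turned round on the dimmest probe set of each gene, where Hbb-y minus Hbb-bh1 was -0.26, Hba-x minus Hbb-bh1 was 0.36 and Hba-x minus Hbb-y was 0.62. No order among Hba-x, Hbb-bh1 and Hbb-y can therefore be read from these arrays.

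**Figure D3:**
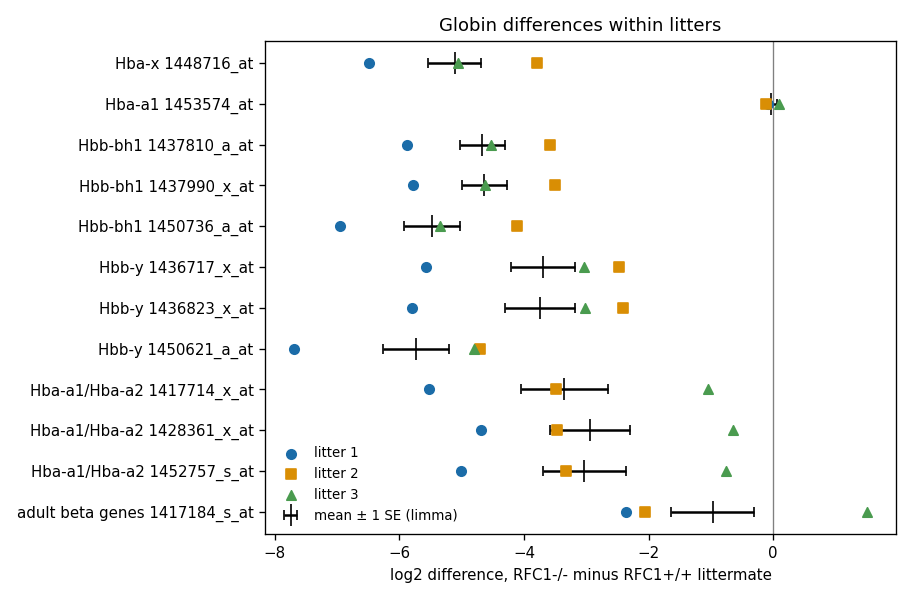
RFC1-/- minus RFC1+/+ log2 difference within each litter for the 8 globin probe sets with 1 symbol and the 4 that several adult genes share, with points for litters and bars for the limma mean ± 1 SE. The embryonic sets lie between -7.69 and -2.42 in every litter, Hba-a1 lies near 0, and in litter 3 the adult alpha sets reach -0.65 and the adult beta set 1.51.

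Bright probe sets can run out of range, so the levels were set against the top of the scale, which was 14.73 to 14.78 on these arrays. The 4 embryonic probe sets that averaged 13 or more in RFC1+/+ embryos, a limit picked with the values known, lay 8.02 to 11.44 in RFC1-/- embryos and 13.24 to 14.24 in RFC1+/+ embryos, which is 0.49 to 1.49 below the highest value of the RFC1+/+ arrays. Their differences were -4.67 to -3.70. The other 3 (Hba-x, Hbb-bh1 on 1450736_a_at and Hbb-y on 1450621_a_at) lay 5.31 to 8.62 in RFC1-/- embryos and 11.25 to 13.24 in RFC1+/+ embryos, with differences of -5.73 to -5.11. Within Hbb-bh1 and within Hbb-y alike, the sets above the limit thus gave smaller differences than the set below it. Probe sets of 1 gene lay further apart in RFC1-/- than in RFC1+/+ embryos, by 1.97 against 1.16 for Hbb-bh1 and by 3.53 against 1.496 for Hbb-y, on group means.

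Globin sets were among the 100 brightest in RFC1+/+ embryos only: 0 in each RFC1-/- embryo, against 4, 3 and 0 in the RFC1+/+ embryos of litters 1, 2 and 3. The 100 probe sets with the highest mean over the 6 arrays, all at 13.7 or more, held no globin set. A set far dimmer in 1 genotype could hardly enter them, so small differences among them follow in part from this choice. Of these 100, 0 passed (limma; 0 at an unadjusted p under 0.05 and 0 by the random-variance test), their median absolute difference was 0.03 against 0.10 over all probe sets, and their median SD in RFC1+/+ embryos was 0.04 against 0.12. The table carries no saturation mark, and the part of saturation in the smaller differences of the bright globin sets was not tested.

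**Figure D4:**
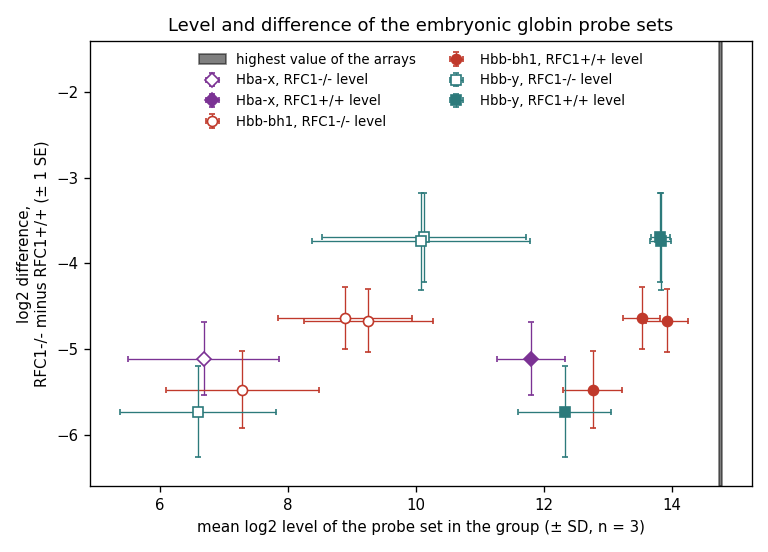
RFC1-/- minus RFC1+/+ log2 difference (± 1 SE, limma) of the 7 embryonic globin probe sets against their mean log2 level (± SD, n = 3) in RFC1-/- embryos (open) and RFC1+/+ embryos (filled), with the highest value of the arrays as a grey band. The 4 sets that average 13 or more in RFC1+/+ embryos lie nearest the band and have the smaller differences, -4.67 to -3.70, and the other 3 have differences of -5.73 to -5.11.

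Other members of the globin family did not pass the test on probe sets of their own. Of 12 further globin genes, 5 had a probe set of their own and 0 passed (limma; 0 at an unadjusted p under 0.05 and 0 by the random-variance test). The log2 differences were -0.09 for Hba-a2, the duplicate of Hba-a1, -0.09 for Hbb-b2, an adult beta gene, 0.15 for Mb, the myoglobin of muscle, -0.01 for Ngb, the neuroglobin of neurons, and -0.03 for Cygb, cytoglobin. The Hbb-b2 set was dim, at 4.16 to 4.50 over the embryos, with 27.2% to 33.3% of probe sets at or below it. Whether it was above background was not tested. The own probe set of Hba-a2 (1427219_at) lay between 5.40 and 5.77 in RFC1-/- embryos and between 5.36 and 5.86 in RFC1+/+ embryos, unlike the shared adult alpha sets. The 7 genes beside the alpha-globin cluster on the chromosome (Nprl3, Mpg, Rhbdf1, Snrnp25, Polr3k, Luc7l and Il9r) had a median difference of 0.01 and 0 passed (0 at an unadjusted p under 0.05, 0 by the random-variance test).

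Genes that govern globin transcription were lower in part. Of 16 regulators measured, 3 were lower, 0 were higher and 13 did not pass, with a median difference of -0.16. Of the 42 probe sets of these genes 4 were lower, against 0.882% over all probe sets. Genes were read on their brightest probe set, and such sets passed more often. With 1 set per gene 968 of 18194 passed in either direction, against 1241 of 45101 over all probe sets. With an intensity trend in the variance, or without the litter block, 5 regulators passed. Klf1, the erythroid Krüppel-like factor that drives beta-globin genes, measured 5.62, 5.55 and 5.85 in the RFC1-/- embryos of litters 1, 2 and 3, against 8.02, 7.89 and 7.68 in RFC1+/+ embryos, a difference of -2.19 (SE 0.13, adjusted p = 0.00299, limma). Its groups were far apart, and it passed with each litter left out in turn. Gata1, the GATA factor of erythroid cells, measured 6.12, 5.89 and 6.02 in RFC1-/- embryos, against 7.41, 6.998 and 6.69 in RFC1+/+ embryos, a difference of -1.02 (adjusted p = 0.0150). Myb, a factor of blood progenitors, measured 6.59, 6.52 and 6.44 in RFC1-/- embryos, against 7.87, 7.79 and 7.25 in RFC1+/+ embryos, a difference of -1.12 (adjusted p = 0.00990). All RFC1-/- embryos lay below all RFC1+/+ embryos for both genes, as they did on 11.5% of all probe sets. Gata1 did not pass without litter 1 (adjusted p = 0.109, limma) or litter 2 (0.0515), nor under the 1.5-fold variation filter of the methods (0.0509). Myb did not pass without litter 1 (0.0832). Under the variation filter Klf1, Gata1 and Myb had the same SE of 0.389, so passing there followed the size of the difference alone.

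Heme, the iron-bearing group that globin chains hold, is made by a chain of enzymes, and 11 of 13 genes for its synthesis, its iron supply and globin assembly were measured. Of these, 3 were lower, 0 were higher and 8 did not pass. Of their 32 probe sets 3 were lower, against 0.882% of all probe sets called lower. The median difference was -0.28. Alas2, the erythroid enzyme of the first step, measured 4.84, 5.09 and 5.69 in the RFC1-/- embryos of litters 1, 2 and 3, against 8.06, 7.62 and 6.97 in RFC1+/+ embryos, a difference of -2.34 (SE 0.32, adjusted p = 0.0160, limma). Slc25a37, the mitochondrial iron importer mitoferrin, measured 7.70, 7.70 and 7.76 in RFC1-/- embryos, against 8.88, 8.83 and 8.44 in RFC1+/+ embryos, a difference of -1.002 (adjusted p = 0.0139). Tfrc, the transferrin receptor, measured 11.15, 10.98 and 11.08 in RFC1-/- embryos, against 11.64, 11.51 and 11.58 in RFC1+/+ embryos. Its difference was -0.51 (adjusted p = 0.0435, limma), and of its 6 probe sets only this 1 passed. Alas2 and Slc25a37 had their smallest difference in litter 3, whereas Tfrc differed by about the same amount in each litter. The enzymes Alad (-0.27), Uros (-0.47), Urod (-0.28), Cpox (-0.10), Ppox (-0.16) and Fech (-0.18), the transporter Abcb10 (-0.44) and the heme-regulated kinase Eif2ak1 (-0.26) did not pass. Without litter 1 none of the 3 passed (adjusted p = 0.0669 for Alas2, 0.108 for Slc25a37 and 0.270 for Tfrc; 129 probe sets of the whole array passed there), and Tfrc also did not pass without litter 2 (0.152) or litter 3 (0.0573), or with arrays centred on their median (0.0525). Slc25a37 did not pass under the variation filter (adjusted p = 0.0573, limma), where it had the same SE of 0.389 as Klf1, Gata1 and Myb.

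**Figure D5:**
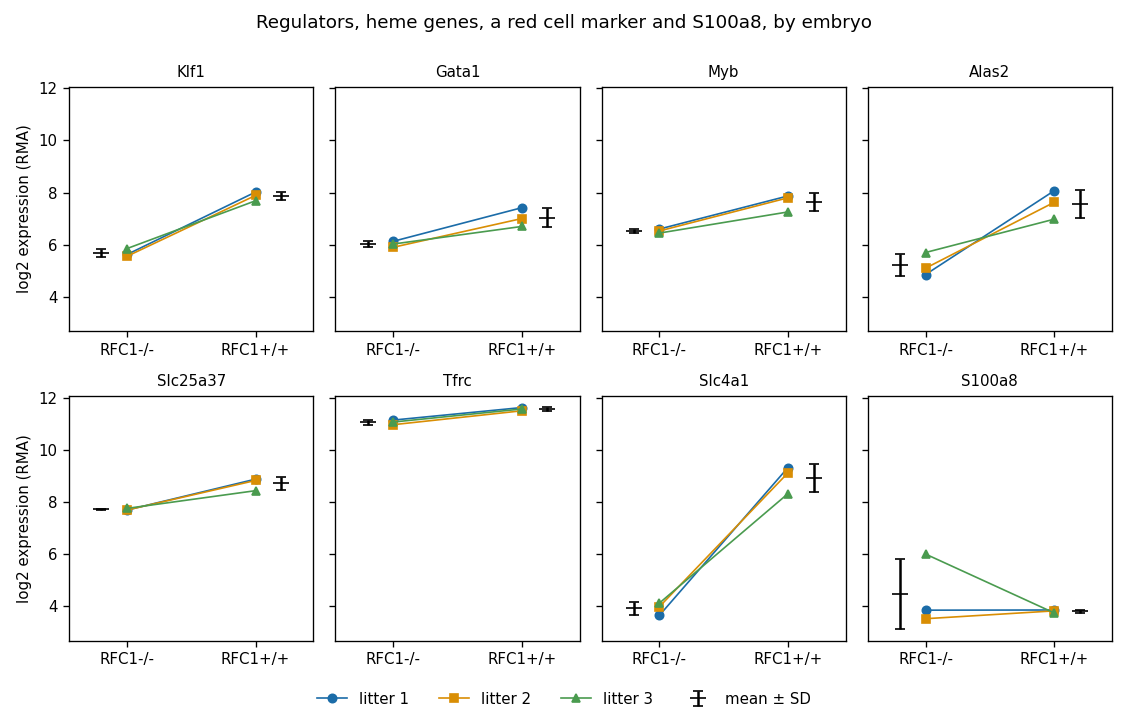
Log2 expression (RMA) of 3 globin regulators, 3 heme genes, the red cell marker Slc4a1 and the granulocyte marker S100a8, with RFC1-/- embryos on the left and RFC1+/+ embryos on the right, a line joining the embryos of 1 litter, and bars for the mean ± SD of 3 embryos. Klf1, Gata1, Myb, Alas2, Slc25a37, Tfrc and Slc4a1 show every RFC1-/- embryo below every RFC1+/+ embryo, and S100a8 stands at 6.00 in the RFC1-/- embryo of litter 3 alone.

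Markers of red cells other than globins were lower in part, 3 of the 8 measured. Of their 15 probe sets 5 were lower, against 0.882% of all probe sets called lower. Slc4a1, the anion exchanger band 3 of the red cell membrane, measured 3.64, 3.98 and 4.12 in the RFC1-/- embryos of litters 1, 2 and 3, against 9.33, 9.12 and 8.32 in RFC1+/+ embryos, a difference of -5.01 (SE 0.25, adjusted p = 0.00156, limma). Its groups did not overlap. In RFC1-/- embryos the probe set was dim, with 12.6% to 24.4% of all probe sets at or below its level, so their order was not read. Of the 10 markers listed 8 were measured and 3 were lower, Slc4a1, Hemgn (-3.17, adjusted p = 0.00501) and Ermap (-1.58, adjusted p = 0.0207), and 0 were higher. Rhag (-0.69), Ank1 (-0.57), Sptb (-0.16), Epor (-0.16) and Epb42 (-0.03) did not pass on the probe set with the highest mean. Epb42 was dim on the set read here, but the other of its 2 probe sets was called lower. Of the 15 probe sets of the list, 5 were lower and 0 were higher. The summed log2 levels of the 8 measured markers were 39.7 to 41.5 in RFC1-/- embryos and 49.4 to 53.9 in RFC1+/+ embryos. Ermap did not pass without litter 1 (adjusted p = 0.0690, limma) or litter 2 (0.0554). Among other cell types, the megakaryocyte gene Pf4 was lower, with a difference of -2.64 (adjusted p = 0.0370; 0.0829 without litter 1 and 0.0929 without litter 2), 1 of 4 markers, 0 of 3 macrophage markers passed (0 at an unadjusted p under 0.05, 0 by the random-variance test), and the endothelial receptors Kdr (0.84) and Tek (0.70) were higher, 2 of 4. All 5 markers of visceral endoderm, the yolk sac layer that lies over the blood islands, were higher. Of their 14 probe sets 13 were higher, against 1.87% of all probe sets called higher. The summed log2 levels of the 5 markers were 52.9 to 61.4 in RFC1-/- embryos and 33.4 to 43.4 in RFC1+/+ embryos. Without litter 1, Kdr (adjusted p = 0.0861, limma), Tek (0.126) and the visceral endoderm gene Amn (0.0667) did not pass, and Tek did not pass without litter 2 (0.0663) or without the litter block (0.0609). Under the 1.5-fold variation filter neither Kdr (adjusted p = 0.121, limma) nor Tek (0.204) passed, again with the same SE of 0.389 for both. The part of cell makeup in the globin differences was not tested.

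The genes most like the embryonic globins across the 6 arrays were named by Pearson's r with the mean of the brightest probe sets of Hba-x, Hbb-bh1 and Hbb-y. Among 1153 genes with a range of 1 or more, 105 had an r above 0.9, and the 6 highest were Prdm16 (0.998), Rspo1 (0.994), Stmn3 (0.986), Megf9 (0.985), Clec1b (0.985) and Dpysl4 (0.984). The 6 points fell into the 2 genotypes, so r mostly follows the difference between them, and it is given as a description. Prdm16, a transcription factor, measured 5.29, 5.89 and 5.49 in the RFC1-/- embryos of litters 1, 2 and 3, against 6.96, 6.96 and 6.77 in RFC1+/+ embryos, with the highest RFC1-/- embryo in litter 2 as for the globins. The differences of these genes were smaller than those of the globins, from -1.74 for Stmn3 to -0.97 for Megf9.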

How the data were processed

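Total RNA of each whole E9.5 embryo (100 ng) was labelled with a 2-cycle kit and hybridized to 1 array. The values deposited by the authors are log2 levels from RMA, which corrects the perfect match probes for background, applies quantile normalization and summarises each probe set by median polish. The RMA version was not given in the sources used here. The table held 45101 probe sets on each array, and 0 columns stayed unused. Arrays give no read depth, and the 6 arrays limit the precision.

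The platform annotation gave 1 symbol to 34958 probe sets, several to 932 and none to 9211. RFC1-/- minus RFC1+/+ was fitted with limma 3.58.1 in R 4.3.3 with the litter as a block and empirical Bayes moderation, over all probe sets, and adjusted by Benjamini-Hochberg; 6793 probe sets had an unadjusted p under 0.05. A negative difference means lower in RFC1-/- embryos. The pairing comes from the labels and methods, which make each number a litter; deviations of littermates from their group means correlated at 0.10, -0.05 and -0.15. Pairs of genes were compared by exact sign-flip permutation tests over litters. Comparisons with the dim Hba-a1 probe set are not reported. List genes were read on the probe set with the highest mean. Every single-symbol globin probe set, every other globin and heme gene measured, the called regulators with the largest differences and the 6 genes most like the globins were named. Alternatives were the random-variance paired test, an intensity trend, no block, dim probe sets left out (limit 5.47), the 1.5-fold variation filter of the methods (2982 probe sets, also at 0.001), centring, a second quantile normalization, other choices of probe set, and each litter left out. The fit was run on simulated data as a check of the code. The litter effect simulated there was set by hand and not estimated from these embryos. Tables, exact tests and plots were made in Python 3.11.15 (scipy 1.17.1, numpy 2.4.6, pandas 2.3.3, matplotlib 3.10.9). The members and the lists were chosen with earlier results of these data known, and the probe sets with several symbols after their values had been seen.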

Additional observations from a re-analysis of the deposited data

How the results depend on the processing

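The 7 embryonic globin probe sets stayed lower past the threshold under every alternative run, also without the replicate block (pairing of littermates dropped; highest adjusted p = 0.0311, limma), and 7 globin probe sets were called lower under each that kept probe sets apart. Without the block, and likewise with an intensity trend, 5 regulators passed, against 3 in the main fit. No other count of the lists moved by over 1.5 times under either of these settings. With each litter left out in turn the regulators called ranged from 1 to 3 and the heme and assembly genes from 0 to 4, the lowest counts being those without litter 1, where 129 probe sets of the array passed. Calls over all probe sets ranged from 129 to 1585 over 13 alternatives, against 1241; they were 491 under the 1.5-fold variation filter, 174 there at 0.001 and 803 with probe sets averaged per gene. Hba-a1 ranged from -0.097 to 0.0089 with a litter left out, turning positive without litter 2. On the probe set with the lowest mean, Hba-x minus Hbb-bh1 turned to 0.36, Hba-x minus Hbb-y to 0.62 and Hbb-y minus Hbb-bh1 to -0.26. The shared adult alpha sets passed under an intensity trend, and 1 of them (1417714_x_at) with dim probe sets left out (adjusted p = 0.0475, limma). They also passed without litter 3, which was singled out by its values on these same sets. Under the variation filter they passed too, but all globin probe sets there had the same SE of 0.389. Passing under that filter thus followed the size of the difference alone, for the embryonic sets as well. The causes of these changes were not tested.

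With 3 litters exact tests cannot go below 0.25, and 1 dim probe set carries Hba-a1 alone.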
